A study of Vitis vinifera with 16 samples.

Results

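Transcript levels of 9 MYB genes were followed in leaves of the white grapevine cultivar Garnacha Blanca, 24 h after spraying with a plant extract or with a bacterium. The 9 genes were taken by their row identifiers from a table of 30661 genes and comprise 2 groups. The first holds VIT_00s0203g00170 and VIT_12s0134g00490, MYB genes that the study's defense scheme marks for the Akivi treatment. The second holds 7 regulators known from grapevine phenolic metabolism, MYB14, MYB15, MYBF1, MYBPA1, MYB5a, MYB5b and MYBA1. All 9 rows were found, and the table pairs no row with a gene name. The names used here come from grapevine usage, and the study's own annotation calls the row named MYB15 here (VIT_05s0049g01020) Myb domain protein 14. MYB14 here is VIT_07s0005g03340.

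The plants were one-year-old vines grafted on 110R rootstock and grown in pots in a greenhouse. They received Akivi, a Dittrichia viscosa extract meant for biocontrol, at 0.521 g/L (Aki), or the strain Bacillus UdG (B. velezensis) at 1e8 CFU/mL as a lyophilized (BL) or a fresh (BF) preparation, and water in the non-treated control (NTC). The 4 groups held 4 biological replicates apiece, and a replicate pooled 2 leaves per plant from 5 plants. Every treatment stood in a block of its own, so that the treatment and the place of the plants cannot be told apart. The study kept 12 libraries and left out Aki_R1, BL_R1, BF_R1 and NTC_R3 because of their place in a PCA of these data. Values are therefore given for the 12 retained libraries (3 per group) and for all 16.

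R2R3-MYB proteins are plant transcription factors, and grapevine has a large family of them. Many control a branch of the phenylpropanoid pathway, often together with bHLH and WD40 partner proteins. In grapevine leaves this pathway feeds stilbenes, which are antimicrobial phytoalexins, as well as flavonols, which absorb ultraviolet light, and condensed tannins. Anthocyanins, the red pigments, form a further branch that white cultivars do not develop in the berry skin.

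The deposited values are FPKM, that is, fragments scaled by gene length and by the assigned fragments of each library. The steps between low values allowed whole fragments to be rebuilt for 25310 of the 25310 genes above 0. Libraries held between 11078489 and 16330594 rebuilt fragments in Aki, between 12282564 and 16991921 in BL, between 11255899 and 14754612 in BF and between 13078385 and 16124874 in NTC. A count of 3 fragments was set as the detection limit, which for 1 kb of gene length is 0.177 to 0.271 FPKM depending on the library. Intervals and limits from fragments cover counting error only. Changes are log2 differences of FPKM + 0.1, which understates the change of low genes. They were tested with limma over 20078 genes in 12 libraries and 20246 genes in 16, and called genes are those whose p, adjusted by the Benjamini-Hochberg method, was at most 0.05. In pooled leaf tissue, fewer cells of a type and less RNA per cell cannot be told apart. Markers of leaf cell types were not tested, because the rows carry no names.

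The 9 genes spanned a wide range of levels. In NTC, MYB5b had the highest mean (23.6 FPKM), followed by MYB5a (19.7 FPKM), MYBPA1 (between 11.6 and 17.5 FPKM) and MYBF1 (10.6 FPKM). VIT_00s0203g00170 came next with 5.34 FPKM, then VIT_12s0134g00490 with 1.92 FPKM, MYB14 with 0.681 FPKM and MYB15 with 0.404 FPKM. The libraries of MYBPA1 and MYBF1 overlapped in NTC, as did those of each neighbouring pair from VIT_00s0203g00170 down to MYB15. In Aki, VIT_00s0203g00170 (13.6 to 16.8 FPKM) stood above MYBF1 (5.65 to 11.1 FPKM) without overlap. The tannin regulator MYBPA1 stood above MYB5a in Aki and BF and below it in BL and NTC, and these ranges overlapped in Aki and BF. Among the 8 genes with more than 3 fragments in some library, the spread inside groups was smallest for MYB5a, with a coefficient of variation between 6.51% and 10.6%, and largest for VIT_12s0134g00490, with up to 78.9% in NTC.

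**Figure D1:**
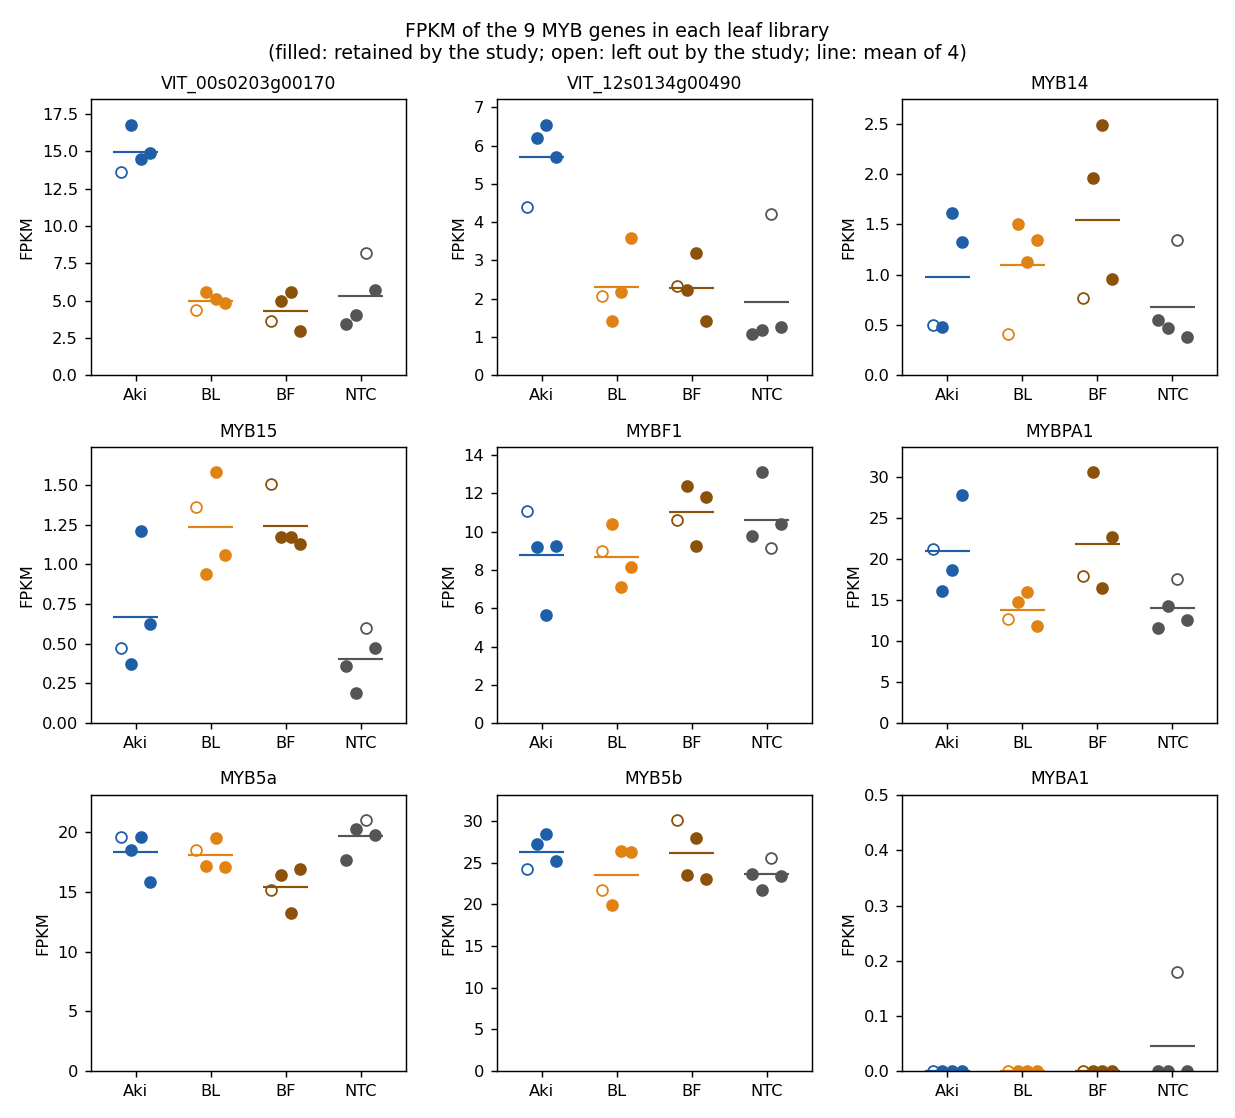
FPKM of each of the 9 MYB genes (y axis, a scale for each panel from 0) in the Aki, BL, BF and NTC libraries (x axis), with open circles for the libraries that the study left out and lines for the means of 4 libraries. VIT_00s0203g00170 lies between 13.6 and 16.8 FPKM in Aki, above every other library, and MYBA1 is at 0 in all libraries but NTC_R3.

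MYBA1 (VIT_02s0033g00410), the activator of anthocyanin synthesis in berry skin, was listed at 0 in 15 libraries. The exception was NTC_R3 with 2 fragments, or 0.179 FPKM, which is under the limit of 3 fragments (0.218 to 0.334 FPKM on this gene, depending on the library). It did not reach the filter of 0.5 FPKM in 3 libraries, so 8 of the 9 genes were tested. At this depth no level of MYBA1 could be told from 0 in any group.

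The first question was how leaves treated with Akivi differed from non-treated ones. VIT_00s0203g00170, which lies on an unplaced scaffold, had 13.6, 16.8, 14.5 and 14.9 FPKM in the 4 Aki libraries. BL libraries had 4.34, 5.56, 5.08 and 4.81 FPKM and BF libraries 3.65, 4.94, 5.57 and 2.94 FPKM, against 3.43, 4.02, 8.17 and 5.73 FPKM in NTC libraries. Every Aki library was above every other library, and BL and BF overlapped NTC. Groups of 16 libraries did not overlap for 5.61% of all genes tested in Aki against NTC. The log2 difference of Aki to NTC was 1.82 (SE 0.23) in 12 libraries, or 3.52-fold, and 1.54 (SE 0.23) in 16, or 2.92-fold.

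VIT_12s0134g00490, on chromosome 12, showed a similar order at lower levels. It had 4.39, 6.21, 6.55 and 5.69 FPKM in Aki, and 2.06, 1.42, 2.18 and 3.59 FPKM in BL. BF libraries had 2.32, 2.22, 3.20 and 1.42 FPKM, against 1.08, 1.17, 4.20 and 1.25 FPKM in NTC. Aki did not overlap NTC, but the highest NTC library, NTC_R3, came close to the lowest Aki library, Aki_R1. The log2 difference was 2.30 (SE 0.33) in 12 libraries, or 4.93-fold, and 1.74 (SE 0.37) in 16, or 3.35-fold. The retained BL and BF libraries lay above the retained NTC libraries without overlap. Of all genes tested, 36.4% did not overlap in BL against NTC and 32.0% in BF against NTC in these libraries. The log2 differences were 0.89 (SE 0.33) in BL and 0.84 (SE 0.33) in BF. Both groups overlapped NTC over 16 libraries, with differences of 0.42 (SE 0.37) for each.

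The study's scheme was drawn from the retained libraries and writes out identifiers whose log2 fold change is above 1.4, so these differences describe the choice and no test is given for them. Both genes lay above that value against NTC in both sets of libraries, while the nearest of the other regulators in Aki was MYB14 at 1.00 in 12 libraries. The left-out libraries Aki_R1 and NTC_R3 did not enter the screen. For VIT_00s0203g00170, Aki_R1 held 205 fragments and NTC_R3 122, a ratio of FPKM of 1.66 with a counting interval (95%) of 1.32 to 2.10. For VIT_12s0134g00490 they held 56 and 53 fragments, a ratio of 1.04 with an interval of 0.705 to 1.55. With 1 library on each side and no replicate spread, and with libraries set apart by a PCA of these data, these ratios describe the libraries and are no independent evidence on the treatment.

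Against the Bacillus preparations, Aki was also higher for both genes in every library. Groups of 16 libraries did not overlap for 24.1% of all genes tested in Aki against BL and for 17.4% in Aki against BF. The log2 difference of Aki to BL was 1.56 for VIT_00s0203g00170 and 1.42 for VIT_12s0134g00490 in 12 libraries, and 1.58 and 1.33 in 16. The difference of Aki to BF was 1.81 and 1.46 in 12 libraries, and 1.82 and 1.32 in 16. These comparisons share the Aki libraries with the choice, so the values are a description as well.

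None of the 6 known regulators tested was called after Akivi. In 12 libraries 7.91% of all genes tested were called (4.29% higher) and in 16 libraries 0.929% (0.820% higher), and the count of 2 among all 8 MYB genes tested comes from the 2 scheme genes. Of the 6 regulators, 3 had an unadjusted p under 0.05 in 12 libraries (MYB14, MYBF1 and MYBPA1) and 1 in 16 libraries (MYBPA1), where 4402 of 20078 and 2099 of 20246 genes had such a p. The test on rebuilt fragments with voom weights also called 0 of the 6, with 3 at an unadjusted p under 0.05, and over all genes 1945 were called and 4561 had such a p.

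MYBPA1 (VIT_15s0046g00170), an activator of condensed tannin synthesis, had 21.2, 16.1, 18.6 and 27.8 FPKM in Aki and 11.6, 14.3, 17.5 and 12.5 FPKM in NTC. The retained libraries did not overlap, and NTC_R3 reached into the range of Aki. The log2 difference was 0.66 (SE 0.23, limma adjusted p = 0.107) in 12 libraries and 0.56 (SE 0.20, adjusted p = 0.275) in 16. MYBF1 (VIT_07s0005g01210), an activator of flavonol synthesis, had 11.1, 9.19, 5.65 and 9.27 FPKM in Aki and 9.80, 13.1, 9.14 and 10.4 FPKM in NTC. Its difference was -0.49 (SE 0.21, adjusted p = 0.194) in 12 libraries and -0.30 (SE 0.19, adjusted p = 0.643) in 16. Groups of retained libraries that do not overlap were common in this comparison, at 26.8% of all genes tested, against 5.61% in 16 libraries.

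The second question was the response to the Bacillus preparations. MYB15, a regulator that activates stilbene synthase promoters in grapevine, was higher than in NTC after both. It had 1.36, 0.940, 1.58 and 1.06 FPKM in BL and 1.51, 1.17, 1.17 and 1.13 FPKM in BF. Aki libraries had 0.474, 0.372, 1.21 and 0.622 FPKM, and NTC libraries 0.358, 0.189, 0.599 and 0.471 FPKM. All 8 Bacillus libraries were above all 4 NTC libraries, and Aki overlapped both. Groups of 16 libraries did not overlap for 21.1% of all genes tested in BL against NTC and for 17.3% in BF against NTC.

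MYB15 rose in BL by 1.58 on the log2 scale (SE 0.41, limma adjusted p = 0.0179) in 12 libraries and by 1.45 (SE 0.34, adjusted p = 0.00824) in 16. In BF it rose by 1.57 (SE 0.41, adjusted p = 0.0213) in 12 libraries and by 1.48 (SE 0.34, adjusted p = 0.007) in 16. In Aki the difference was 0.85 (SE 0.41, adjusted p = 0.252) and 0.57 (SE 0.34, adjusted p = 0.625). The direct difference of Aki to BL was -0.73 (SE 0.41, adjusted p = 0.252) and that of Aki to BF -0.72 (SE 0.41, adjusted p = 0.28) in 12 libraries, and in 16 libraries -0.88 (adjusted p = 0.101) and -0.91 (adjusted p = 0.0906), so a difference between the treatments was not shown. The levels rest on 3 to 28 fragments per library. With 12 libraries the call in BL was lost without BL_R3 (adjusted p = 0.0743) or NTC_R2 (0.0646), and the call in BF without BF_R2 (0.065), BF_R3 (0.0581) or NTC_R2 (0.0739). A block for the replicate number in the 12-library fit also removed the call in BF (limma adjusted p = 0.0622).

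MYB14, the other known activator of stilbene synthase genes, was less uniform. It had 0.503, 0.475, 1.61 and 1.32 FPKM in Aki and 0.413, 1.50, 1.12 and 1.34 FPKM in BL. BF libraries had 0.770, 1.96, 2.49 and 0.951 FPKM, against 0.544, 0.469, 1.34 and 0.375 FPKM in NTC. The retained BL and BF libraries were above the retained NTC libraries, where 36.4% of all genes tested did not overlap in BL against NTC and 32.0% in BF against NTC. Among the left-out libraries, BL_R1 was low and NTC_R3 was level with BL_R4.

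MYB14 rose in BL by 1.34 (SE 0.43, limma adjusted p = 0.0476) and in BF by 1.67 (SE 0.43, adjusted p = 0.0204) in 12 libraries. In 16 libraries the differences were 0.63 (SE 0.50, adjusted p = 0.457) and 1.07 (SE 0.50, adjusted p = 0.165), and neither was called. The call in BL was also lost without any of the 3 retained BL or 3 retained NTC libraries, with adjusted p between 0.069 and 0.141, and without Aki_R4 (0.0554) or BF_R2 (0.0636), which enter the common spread. The call in BF was lost without BF_R2 (0.0747), BF_R3 (0.0843) or NTC_R4 (0.074). With the replicate block in 12 libraries both calls were lost (limma adjusted p = 0.119 in BL and 0.0742 in BF). The levels rest on 6 to 33 fragments.

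The study lists the row named MYB15 here among its Bacillus genes, from a screen of the retained libraries, so that the tests above, which hold those libraries, are not independent evidence of its direction. In the libraries outside that screen, MYB15 had 28 fragments in BL_R1 and 25 in BF_R1, against 10 in NTC_R3. The ratios of FPKM were 2.27 (95% counting interval 1.07 to 5.24) and 2.52 (1.17 to 5.88). MYB14 had 8 fragments in BL_R1 and 12 in BF_R1, against 21 in NTC_R3, with ratios of 0.309 (0.118 to 0.726) and 0.576 (0.258 to 1.23). These ratios also set 1 library against 1 and lack a replicate spread, so they describe the libraries and are no support for a direction.

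MYBPA1 was the third regulator that rose in BF. BL libraries had 12.7, 14.7, 15.9 and 11.8 FPKM and BF libraries 17.9, 30.5, 16.4 and 22.6 FPKM. Set against the NTC values above, all BF libraries but BF_R3 were above every NTC library, and the BL range lay within that of NTC. The log2 difference of BF to NTC was 0.81 (SE 0.23, limma adjusted p = 0.033) in 12 libraries and 0.61 (SE 0.20, adjusted p = 0.0441) in 16. In BL it was 0.13 (SE 0.23, adjusted p = 0.729) and -0.02 (SE 0.20, adjusted p = 0.97). With 12 libraries the call in BF was lost without BF_R2 (adjusted p = 0.131), BF_R4 (0.0697), NTC_R1 (0.0997) or NTC_R4 (0.094), and with 16 libraries without Aki_R1 (0.0525) or BL_R1 (0.0547). The replicate block also removed this call, in 12 libraries (limma adjusted p = 0.113) and in 16 (0.0591). Aki was above BL in all libraries, a comparison in which 24.1% of all genes tested did not overlap, with a log2 difference of 0.53 (SE 0.23, adjusted p = 0.145) in 12 and 0.58 (SE 0.20, adjusted p = 0.06) in 16.

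MYB5a (VIT_08s0007g07230), which acts on several branches of flavonoid synthesis, was lower in BF. It had 18.5, 17.2, 19.5 and 17.1 FPKM in BL and 15.2, 16.4, 13.2 and 16.9 FPKM in BF, against 17.7, 20.3, 21.0 and 19.8 FPKM in NTC. Every BF library was below every NTC library and every BL library. In 16 libraries 17.3% of all genes tested did not overlap in BF against NTC, and 5.52% in BL against BF. The difference of BF to NTC was called in 16 libraries (-0.35, SE 0.10, limma adjusted p = 0.0267) and not in 12 (-0.32, SE 0.12, adjusted p = 0.104). In 12 libraries it was called after median-of-ratios scaling (-0.38, adjusted p = 0.0462) or quantile scaling (-0.38, adjusted p = 0.0414), and with 16 it was lost without NTC_R3 (-0.32, adjusted p = 0.0648). In Aki, MYB5a had between 15.8 and 19.6 FPKM, with a difference to NTC of -0.10 in both sets.

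MYB5b (VIT_06s0004g00570), a close relative with a role in tannin and anthocyanin synthesis in berries, was the highest and one of the steadiest. It ranged between 24.2 and 28.4 FPKM in Aki, between 19.9 and 26.4 FPKM in BL, between 23.0 and 30.1 FPKM in BF and between 21.7 and 25.6 FPKM in NTC. All groups overlapped in 16 libraries. The retained Aki libraries were above the retained NTC libraries, a comparison in which 26.8% of all genes tested did not overlap. The differences to NTC in 12 libraries were 0.23 in Aki (95% interval -0.04 to 0.49), 0.06 in BL (-0.20 to 0.33) and 0.11 in BF (-0.16 to 0.37). MYBF1 had between 7.11 and 10.4 FPKM in BL and between 9.26 and 12.4 FPKM in BF, with differences to NTC of -0.38 (95% interval -0.84 to 0.08) and 0.01 (-0.45 to 0.47).

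**Figure D2:**
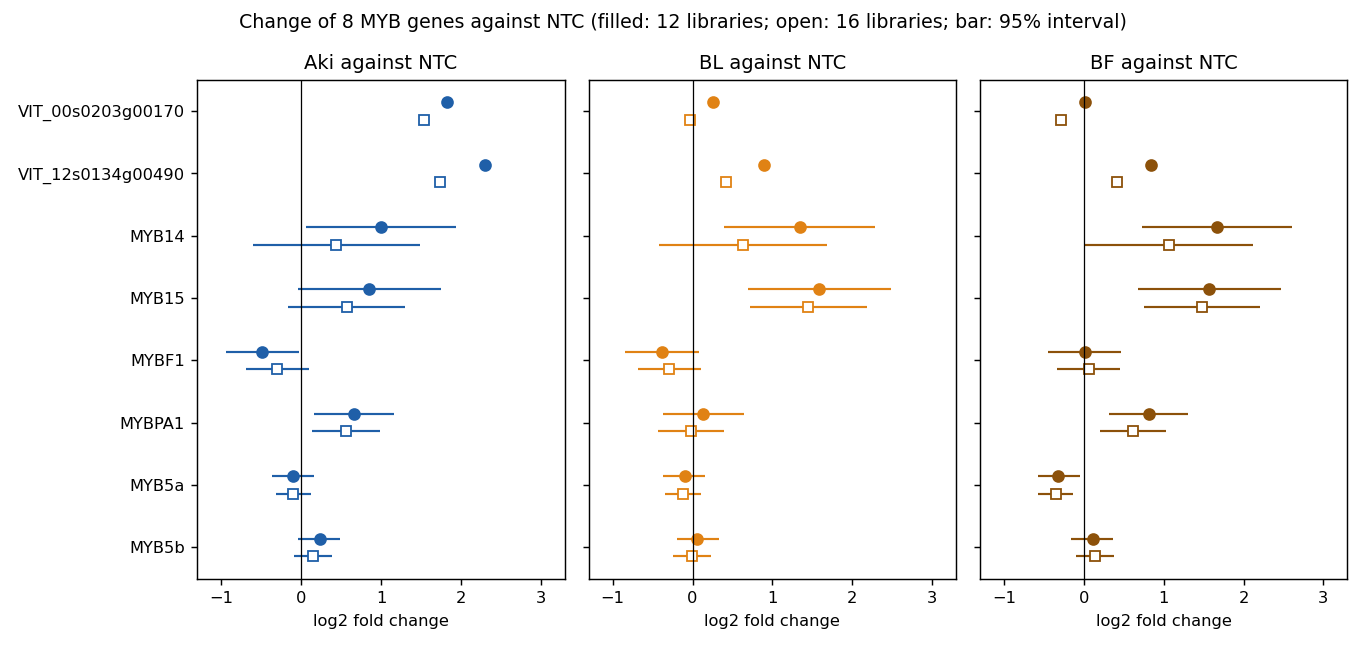
Log2 fold change of FPKM + 0.1 against NTC (x axis) for the 8 genes tested (y axis) in Aki, BL and BF, as filled circles for 12 libraries and open squares for 16, with bars for 95% intervals and no bars for the scheme genes. MYB15 stays between 1.45 and 1.58 in both Bacillus groups, while MYB14 in BL is at 1.34 in 12 libraries and at 0.63 in 16.

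In counts, 2 of the 8 MYB genes tested were called in BL against NTC in 12 libraries (MYB14 and MYB15, both higher), where 19.7% of all genes tested were called and 11.5% were called higher. In 16 libraries it was 1 (MYB15), with 16.0% of all genes called and 9.33% called higher. In BF against NTC it was 3 (MYB14, MYB15 and MYBPA1, all higher), with 15.5% of all genes called and 9.89% called higher. In 16 libraries it was again 3, but MYB5a, which fell, stood in place of MYB14, and 15.8% of all genes were called, 9.25% higher and 6.56% lower. With so few genes, these counts are given as a description beside the shares of all genes. A log2 fold change of 1.4 or more was reached by MYB15 in BL, and by MYB14 and MYB15 in BF, in 12 libraries.

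Between the Bacillus preparations, none of the 8 genes was called in either set of libraries. In this comparison 0 of 20078 genes were called by limma in 12 libraries (1625 at an unadjusted p under 0.05), 0 with rebuilt fragments and voom (1587), and 27 genes, or 0.133%, in 16. MYBPA1 had the largest log2 difference of BL to BF, -0.68 (95% interval -1.18 to -0.17, adjusted p = 0.468) in 12 libraries. BL was below BF in all libraries for MYBPA1 and above it for MYB5a, whose difference was 0.21 (-0.05 to 0.48) in 12 libraries. Groups of 16 libraries did not overlap for 5.52% of all genes tested in this comparison. Between Aki and each Bacillus preparation 0 of the 6 known regulators were called, by limma in both sets and by voom. In each of these comparisons 1 had an unadjusted p under 0.05 in 12 libraries and 2 in 16. In Aki against BL 6157 of 20078 genes had such a p in 12 libraries and 5646 of 20246 in 16. In Aki against BF it was 5778 and 5551. Of all genes tested, 15.4% were called in Aki against BL and 15.8% in Aki against BF in 12 libraries, and 14.5% and 14.6% in 16. In 16 libraries the groups of Aki and BF did not overlap for 17.4% of all genes.

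The library NTC_R3 moved with several of these results. It was the highest NTC library for 7 of the 8 genes tested, MYBF1 being the exception, while it was the highest NTC library for 29.9% of all genes tested. Without this library, and with all others, MYB15 was called in BL and MYB15 and MYBPA1 in BF, and MYB5a was not. The log2 differences to NTC in the fit of all libraries but this one were 2.18 for VIT_12s0134g00490 and 1.77 for VIT_00s0203g00170 in Aki. For MYB14 they were 0.97 in BL (limma adjusted p = 0.222) and 1.41 in BF (adjusted p = 0.0709), each larger than with all 16 libraries and not called.

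Genes taken as targets of these regulators were set beside them. Stilbene synthase genes of grapevine lie in 2 blocks on chromosomes 10 and 16, and many are nearly identical. The blocks were taken as ranges of neighbouring identifiers, with 52 rows in the table. These rows carry no names, so whether each is a stilbene synthase gene could not be checked. Because the authors counted uniquely mapping fragments, the level of a single copy is uncertain. The sum over the blocks was used, and it also lacks the fragments that fit several copies. It was between 28.2 and 41.0 FPKM in Aki, between 60.9 and 75.0 FPKM in BL and between 61.1 and 79.3 FPKM in BF, against 26.6 to 37.9 FPKM in NTC. The Bacillus libraries lay above all others. Of the 9 rows tested in 12 libraries, 0 were called higher in Aki (median log2 difference 0.77), 6 in BL (2.22) and 2 in BF (1.68). Over all genes 4.29%, 11.5% and 9.89% were called higher, with medians of -0.01, 0.05 and 0.04. The row VIT_10s0042g00960 rose in both Bacillus groups, by 2.02 in BL (SE 0.22, limma adjusted p = 9.97e-05) and by 2.22 in BF (SE 0.22, adjusted p = 5.9e-05). VIT_16s0100g00950 was also called in both, at 2.40 and 1.86 (SE 0.58). The neighbouring row VIT_10s0042g00950 hardly changed, at -0.17 in BL and -0.04 in BF (SE 0.12). How much each row gave to the sum was not examined. In 16 libraries the counts were 0 of 10 in Aki, 7 of 10 in BL and 3 of 10 in BF. Over all genes 0.820%, 9.33% and 9.25% were called higher there.

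Because the block sums form separate ranges, relations were computed inside the 8 Bacillus libraries and inside the 8 Aki and NTC libraries, a division chosen after seeing the data, in a family of 4. The permutations moved libraries across groups, so these p do not set apart differences between groups. Inside the Bacillus libraries, MYB14 followed the block sum with Pearson r = 0.75 (exact two-sided permutation p = 0.03, adjusted 0.04) and Spearman rho = 0.71 (exact p = 0.058, adjusted 0.14). Without BL_R1 and BF_R3, the libraries farthest from the median of MYB14, r was 0.42, so the relation rests on them. Inside the Aki and NTC libraries r was 0.94 (exact p = 0.0073, adjusted 0.029) and rho 0.62 (exact p = 0.11, adjusted 0.15), and r was 0.83 without Aki_R3 and NTC_R3.

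For MYB15 no relation with the block sum was detected inside the Bacillus libraries, with r = -0.18 (exact permutation p = 0.66, adjusted 0.66) and rho = -0.10 (exact p = 0.84, adjusted 0.84). Inside the Aki and NTC libraries r was 0.76 (exact p = 0.018, adjusted 0.036) and rho 0.69 (exact p = 0.069, adjusted 0.14), and r was 0.85 without Aki_R3 and NTC_R2. On deviations from the group means over all 16 libraries, r with the block sum was 0.83 for MYB14 and 0.53 for MYB15.

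**Figure D3:**
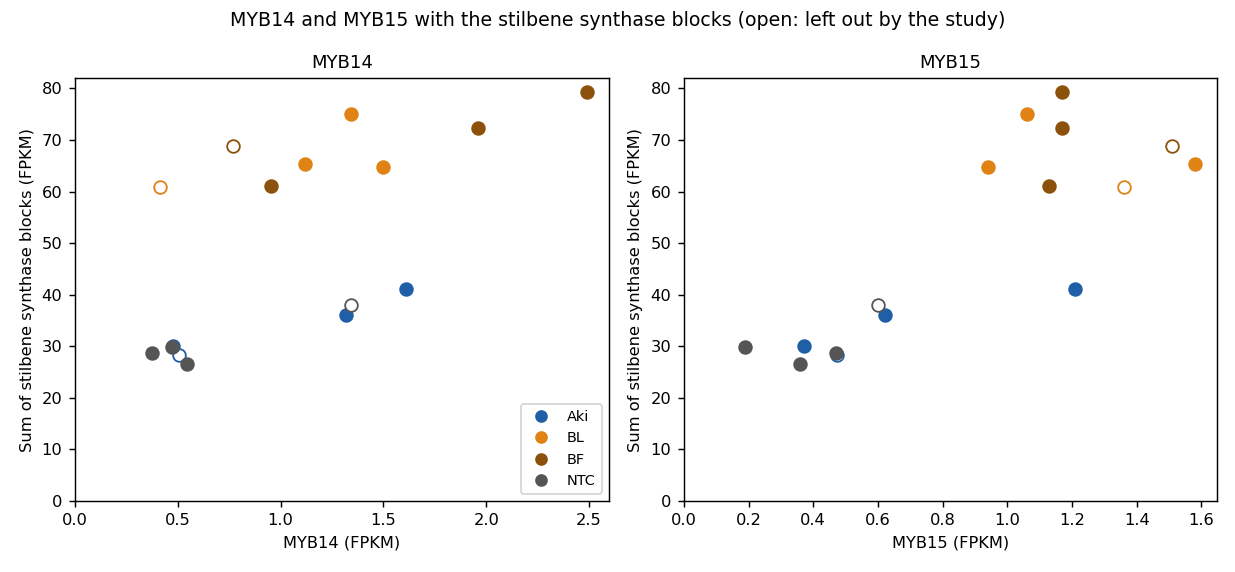
Summed FPKM of the stilbene synthase blocks (y axis) against FPKM of MYB14 and of MYB15 (x axes) in the 16 libraries, colored by group, with open circles for the libraries left out by the study. BL and BF lie between 60.9 and 79.3 FPKM on the y axis and Aki and NTC between 26.6 and 41.0 FPKM, with r of MYB14 at 0.75 inside the upper band and 0.94 inside the lower.

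A further 5 relations were computed over all 16 libraries, with p adjusted over a family of 7 that also held MYB14 and MYB15 with the block sum. Here too the permutations moved libraries across groups, and no p was computed for r on group deviations. MYB14 and MYB15 were related to each other with r = 0.55 (permutation p = 0.028, adjusted 0.039) and rho = 0.41 (p = 0.12, adjusted 0.16), and r was 0.50 without BF_R3 and NTC_R4. On group deviations r was 0.35.

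MYBF1 was set beside VIT_18s0001g03470, a row of a list of flavonoid enzymes drawn up from general knowledge. This row ranged between 0.545 and 3.02 FPKM. Pearson r was 0.85 (permutation p = 2e-05, adjusted 0.00014) and rho 0.84 (p = 8e-05, adjusted 0.00056). Without Aki_R3 and NTC_R2 r was 0.76, and on group deviations it was 0.87. The library with the least MYBF1, Aki_R3 at 5.65 FPKM, also had the least of this row (0.545 FPKM, 11 fragments), and the highest values of the row, 3.02 FPKM in Aki_R1 and 2.97 FPKM in NTC_R2, came with 11.1 and 13.1 FPKM of MYBF1.

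MYBPA1 was set beside the sum of VIT_00s0361g00040, VIT_01s0011g02960 and VIT_17s0000g04150 from the same list. Pearson r was 0.60 (permutation p = 0.014, adjusted 0.024) and rho 0.48 (p = 0.063, adjusted 0.11), and r was 0.44 without Aki_R4 and BF_R2. On group deviations r was 0.86. The Aki libraries had sums between 224 and 317 FPKM and the BF libraries between 152 and 211 FPKM at similar MYBPA1. MYB5b (r = 0.07, permutation p = 0.78, adjusted 0.78) and MYB5a (r = 0.20, p = 0.46, adjusted 0.54) did not pass the threshold with the same sum, with rho of 0.02 (p = 0.94, adjusted 0.94) and 0.29 (p = 0.28, adjusted 0.33), and r without the 2 farthest libraries of 0.22 and -0.06.

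**Figure D4:**
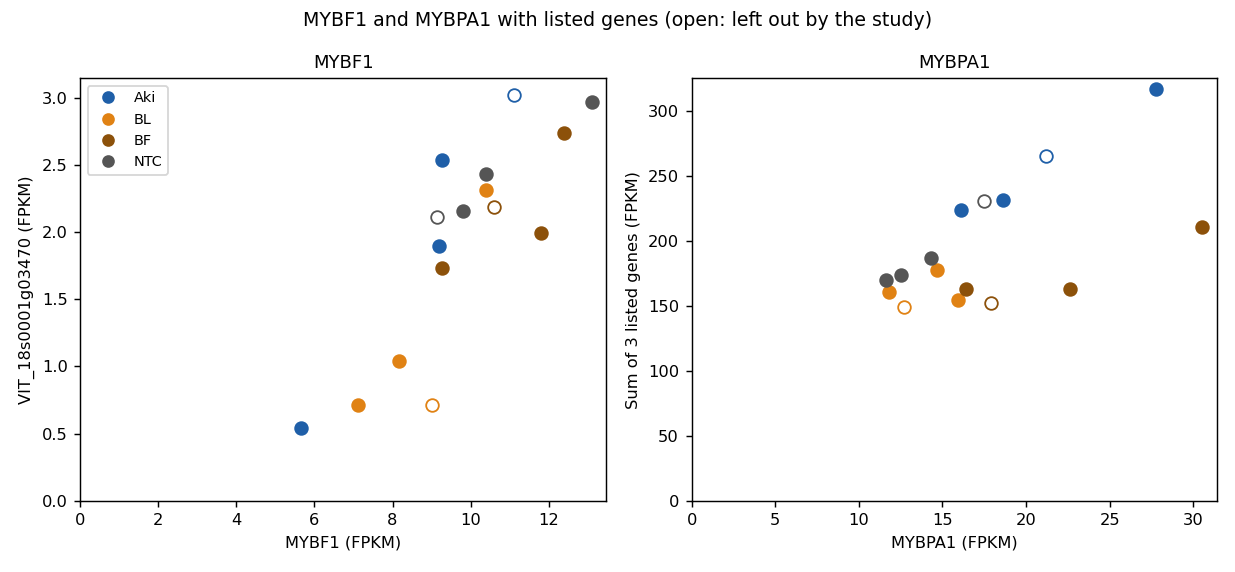
Left, FPKM of VIT_18s0001g03470 (y axis) against FPKM of MYBF1 (x axis), and right, summed FPKM of 3 listed genes (y axis) against FPKM of MYBPA1 (x axis), in the 16 libraries, colored by group and open where the study left the library out. On the left r is 0.85, and on the right the Aki libraries lie between 224 and 317 FPKM, above BF at similar MYBPA1.

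The whole list of flavonoid enzymes, 14 rows whose names could not be checked in the table, was also counted. All 14 were tested. In 12 libraries 2 were called higher in Aki (median log2 difference 0.45), 0 in BL (-0.17) and 2 in BF (0.20), and none was called lower. The rows called were VIT_13s0067g03820 and VIT_05s0136g00260. VIT_13s0067g03820 rose by 0.94 in Aki (SE 0.17, limma adjusted p = 0.0074) and by 0.58 in BF (SE 0.17, adjusted p = 0.0394). VIT_05s0136g00260 rose by 0.94 in Aki (SE 0.24, limma adjusted p = 0.0354) and by 0.82 in BF (SE 0.24, adjusted p = 0.0384). In 16 libraries the counts were 1, 0 and 0. Over all genes the shares called in 12 libraries were 7.91% in Aki, 19.7% in BL and 15.5% in BF, with medians of -0.01, 0.05 and 0.04. In 16 libraries the shares were 0.929%, 16.0% and 15.8%. Aki was called higher than BL for 5 of the 14 in 12 libraries (median 0.63) and for 12 in 16 (median 0.67). Over all genes, 15.4% and 14.5% were called in this comparison in either direction, with medians of -0.07 and -0.04. A list of 10 partner regulators held 6 rows past the filter. In 12 libraries 2 were called higher and 1 lower in Aki, 2 and 1 in BL, and 1 and 1 in BF. The medians of these 6 rows were 0.38, 0.18 and 0.21. In 16 libraries these counts were 0 and 0 in Aki, 3 and 1 in BL, and 2 and 1 in BF.

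Among the 8 genes tested, the scheme genes had r = 0.85 of log2 values over 16 libraries and 0.70 on group deviations. Both were chosen for Akivi, so that the first of these values follows in part from the choice. The second holds NTC_R3, the highest NTC library for both genes (8.17 and 4.20 FPKM), and r without it was not computed. MYBF1 had r = -0.40 with MYB15 (-0.80 on group deviations) and -0.51 with MYB5b (-0.74). Over all genes tested, the row most like VIT_00s0203g00170 was VIT_19s0177g00270 (r = 0.97) and the row most like VIT_12s0134g00490 was VIT_06s0004g07770 (r = 0.94). For MYB15 it was VIT_10s0003g01600 (r = 0.94), and for MYBPA1 it was VIT_05s0136g00260 (r = 0.90), a row of the flavonoid list with between 28.6 and 88.5 FPKM. For MYBF1 the highest were VIT_17s0000g01060 and VIT_18s0001g03470, both at r = 0.85. The highest r was 0.89 for MYB14, 0.91 for MYB5a and 0.82 for MYB5b. These are the highest of many values over libraries that share their groups, and are given as a description.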

How the data were processed

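Leaf RNA of 16 libraries (4 groups of 4) was analysed from the FPKM that the authors deposited. Per the methods and labels, the authors used BBDuk for trimming and STAR 2.6 for alignment to the PN40024 12X genome, counted uniquely mapping fragments with featureCounts 1.6.1 and calculated FPKM with edgeR. The sources used here do not state whether FPKM include TMM factors. The deposited values followed rebuilt fragments scaled by gene length and plain library totals, and no further factor was seen. They were not rescaled in the main fit.

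FPKM were not tested as counts. Log2(FPKM + 0.1) of genes reaching 0.5 FPKM in 3 or more fitted libraries was analysed with limma 3.58.1 (trend, robust) in R 4.3.3, in 1 model of the 4 groups without a block, with Benjamini-Hochberg adjustment over all genes. Main values rest on the 12 libraries the study retained. Replicates were pools of 5 plants. Whole fragments (tolerance 0.001) were rebuilt from FPKM steps for 25310 genes, for totals, limits, Poisson intervals and a voom alternative. Relations used 100000 permutations, or exact ones inside 8 libraries, in both cases without regard to the groups. Alternatives numbered 24, and 4 were added after seeing the data. The procedure was tested on simulated data. Tables and figures used Python 3.11.15, pandas 2.3.3, NumPy 2.4.6, SciPy 1.17.1 and matplotlib 3.10.9.

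All 9 genes were named whatever their values. The genes and lists were chosen with earlier results of these data known. Of the row identifiers of the 9 genes, 0 matched the reference table, so no positions or sequences are given, and lists that needed annotation (other MYB genes, leaf markers) were not used here. RT-qPCR and metabolites were not analysed here.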

Additional observations from a re-analysis of the deposited data

Results flagged for a closer look

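In 32 groups of 4 libraries with values above 0, the highest or lowest library stood far from the others in 2, where chance gives about 1 in 20 groups. For VIT_12s0134g00490, NTC_R3 had 4.20 FPKM, against 1.08 to 1.25 FPKM in the other NTC libraries. For MYB15, BF_R1 had 1.51 FPKM, against 1.13 to 1.17 FPKM in the other BF libraries. These values rest on 25 fragments in BF_R1 (95% counting interval 16.2 to 36.9) and 16 to 21 in the others, and the counting intervals overlap. Both NTC_R3 and BF_R1 are libraries that the study left out.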

How the results depend on the processing

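Of 1343 log2 fold changes of single genes under an alternative, 1220 kept their direction and side of the threshold, 49 lost a call, 11 gained one and 63 changed sign. The count of genes called in BL against NTC was 2, and it was 1 with all 16 libraries, a pseudocount of 1 FPKM, no filter, a filter of 1 FPKM, median-of-ratios or quantile scaling, limma run with neither trend nor robust settings, the replicate block, the block with all 16 libraries, or rebuilt fragments with voom. MYB14 was the call lost in each. Leaving out libraries in turn gave 0 to 3 in BL against NTC, 0 to 3 in BF against NTC, and 1 to 2 in Aki against NTC and in Aki against BL. The cause was not tested.

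Deviations from group means had a median r of 0.07 over 24 pairs of same-numbered libraries (-0.35 to 0.37, 10 over 0.1) and of -0.03 over 72 pairs of other numbers (-0.42 to 0.45, 8 over 0.1). Because not every same-numbered pair was over 0.1 and no label ties the numbers to a shared source, they were not taken as pairs. Whether the numbers mark a shared source was not tested, and the calls in BF in 12 libraries depend on this choice. With the replicate block, 0 genes were called in BF against NTC, where the main count was 3, with limma adjusted p of 0.0742 for MYB14, 0.0622 for MYB15 and 0.113 for MYBPA1. With the block MYBF1 was called in Aki against BF (-0.50, adjusted p = 0.0256).

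Sign changes concerned differences that were not called. In BL against NTC with all 16 libraries, with and without the replicate block, VIT_00s0203g00170 was at -0.03, MYBPA1 at -0.02 and MYB5b at -0.01. In BF against NTC, VIT_00s0203g00170 was at -0.28 with all 16 libraries (with and without the block), -0.19 with the replicate block, -0.05 with median-of-ratios and -0.06 with quantile scaling, and MYBF1 at -0.05 with either scaling. In BL against BF with all 16 libraries, with and without the replicate block, VIT_12s0134g00490 was at -0.01 and MYB15 at -0.03. MYB5a in Aki against BL was at -0.00085 with voom.

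Leaving out libraries in turn, BL against NTC ran from -0.03 to 0.46 for VIT_00s0203g00170, -0.02 to 0.26 for MYBPA1 and -0.01 to 0.20 for MYB5b. BF against NTC ran from -0.28 to 0.28 for VIT_00s0203g00170 and -0.08 to 0.14 for MYBF1. Aki against BL ran from -0.64 to 0.15 for MYB14, -0.23 to 0.13 for MYBF1 and -0.06 to 0.09 for MYB5a, and Aki against BF from -0.38 to 0.07 for MYBPA1. BL against BF ran from -0.03 to 0.42 for VIT_00s0203g00170, -0.28 to 0.36 for VIT_12s0134g00490, -0.20 to 0.15 for MYB15 and -0.15 to 0.09 for MYB5b.

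Pearson r of MYB14 with MYB15 was 0.50 (permutation, adjusted p = 0.069) with a pseudocount of 1 FPKM. In 12 libraries r of MYBPA1 with the 3 listed genes was 0.60 (adjusted p = 0.051) and that of MYB5a -0.03. MYB14 and MYB15 had at most 33 fragments in a library, which limits the precision of their levels.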
